A study of Mus musculus with 2 samples.

Results

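The genes described here are the 300 protein-coding genes with the highest ratio of labeled to unlabeled exon value, out of 4795 ranked (6.26%), in mouse embryonic stem cells, which are pluripotent, of the wild-type genotype. The cells, of the feeder-depleted line DTCM23/49 XY grown with serum and leukemia inhibitory factor, received 200 µM 4-thiouridine (4sU), a uridine analogue that is built into RNA made during the pulse, for 10 min. RNA that carried 4sU was then biotinylated and pulled out on streptavidin as labeled RNA, and the rest was kept as unlabeled RNA, which the labels call preexisting in some fields and total in others. Each pool was sequenced as 1 library, both from replicate 1. The labels describe duplicate labeling, and other replicates were not analysed here. With 1 library per pool no difference has a replicate check and no test was made, so every value below describes these 2 libraries.

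A gene entered the ranking through its coding transcript with the highest mean exon value, where that mean was at least 50 and both values were above 0. The values are relative abundances called TPM by the authors, but the labeled column adds up to 10000003 and the unlabeled one to 9999998, about 10 times what true TPM values give, and read depth is unknown. Each library was scaled to its own total, so a ratio of 1 does not mark equal amounts of RNA, while the order of the genes does not depend on the scaling. The ratio chose the genes, and it is therefore given only as a description. In all, 183 of the 300 genes had an unlabeled value of at least 50, and the other 117 passed the minimum through their labeled value.

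In a short 4sU pulse, the labeled pool holds precursor and mature RNA that were completed or extended within minutes, and the unlabeled pool is mostly RNA made earlier. The paper adds that some unlabeled RNA is usually caught in the labeled pool through unspecific binding, which its method leaves out. How much of the labeled values comes from such RNA was not tested. A high labeled share of mature RNA is expected of genes whose RNA is quickly made, spliced and degraded, and immediate early genes and many transcription factor genes are textbook cases of short-lived mRNA. Ribosomal protein mRNAs and the mRNAs of the respiratory chain are, by contrast, known as abundant housekeeping messages, and many ribosomal protein mRNAs begin with a 5′ terminal oligopyrimidine tract, a C followed by a run of C and T, through which their translation is controlled.

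The check of the cell type found all 10 pluripotent cell markers with a mean exon value of at least 50 (range 90.4 to 2760), and none of 10 fibroblast and feeder markers (highest 10.2) or of 10 primitive endoderm markers (highest 21.2). Of 10 markers of primed epiblast and germ layers, 2 reached 50, with a highest mean of 209. In bulk RNA, fewer cells that express a gene and less RNA in each cell cannot be told apart.

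The sequences around the transcription start are shown first because the ribosomal protein genes were the largest family among the 300. The tract is known from the start of many of their mRNAs, though not of all. Promoter records from RefSeq (GRCm38.p6) were matched for 226 of the 300 genes, and for 141 of these the RefSeq start lay within 50 bases of the start of the ranked transcript. The windows below run 5′ to 3′ from 15 bases before the start to the 15th base of the transcript, and capitals mark a run of C and T that opens with a C on the start base. They show Fau (a ubiquitin-like fusion with a small-subunit protein), Rack1 (a scaffold on the small subunit), the large-subunit gene Rpl38 and 3 small-subunit genes.
Fau, chr19:6057932-6057961, plus strand: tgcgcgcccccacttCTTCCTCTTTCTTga
Rack1, chr11:48800345-48800374, plus strand: cggaggccgctctttCTTTTTCTCCacagg
Rpl38, chr11:114668565-114668594, plus strand: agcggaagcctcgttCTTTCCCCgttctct
Rps15a, chr7:118116133-118116162, minus strand: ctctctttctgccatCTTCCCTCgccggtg
Rps27, chr3:90213634-90213663, minus strand: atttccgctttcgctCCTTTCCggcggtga
Rps21, chr2:180257364-180257393, plus strand: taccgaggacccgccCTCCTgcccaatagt
In these windows the run was 13 bases long in Fau, 10 in Rack1, 8 in Rpl38 and Rps15a, 7 in Rps27 and 5 in Rps21. The same window of Atp5k and of Uqcr11, the respiratory chain genes ranked 11 and 13, held no such run at its start, although other genes of their list did.
Atp5k, chr5:108434385-108434414, minus strand: cattctctgtcttccgcctcagttgagctt
Uqcr11, chr10:80406807-80406836, minus strand: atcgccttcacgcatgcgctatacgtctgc

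A start base C followed by at least 4 C or T was found in 9 of 38 ribosomal protein genes of the set (23.7%) and in 5 of 25 ranked ribosomal protein genes outside it. It was found in 16 of all 226 matched genes of the set (7.08%), against 2.72% of 3599 ranked genes outside it and 2.5% of 32817 promoters in the table. Among the oxidative phosphorylation genes of the set it was found in 2 of 31 (6.45%), Ndufb11 and Atp5g2, and among genes of the set in neither list in 5 of 157 (3.18%). The windows printed for ribosomal protein genes were chosen among the 9 that hold the run, and most ribosomal protein genes of the set do not hold it at the RefSeq start. For Atp5g2 the RefSeq start lay 3298 bases from the start of the ranked transcript. Among the 9 this distance was 1425 bases for Rps10, 493 for Rpl35, 61 for Rplp2 and 56 for Rpl38, so these runs need not open the ranked transcript.

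Within 250 bases before to 50 bases after the start, the letters CCGGAAG, a core of the ETS factor motif, were looked for on both strands. They occurred in 39.5% of the ribosomal protein genes of the set, 9 of 31 of its oxidative phosphorylation genes, 27.4% of all its matched genes, 22.7% of the ranked genes outside it and 8.86% of all promoters. Of the ranked ribosomal protein genes outside the set, 9 of 25 (36%) held them, and of the genes of the set in neither list 24.2%. The motif of NRF1, a factor known for nuclear genes of the respiratory chain, was searched in the 10-base palindromic form that the Atp5k promoter holds in capitals. It occurred in 3 of 31 oxidative phosphorylation genes of the set (9.68%), 2.20% of ranked genes outside it and 0.966% of all promoters. In the set it occurred in 3.54% of all matched genes, 1 of 38 ribosomal protein genes and 2.55% of genes in neither list. Oxidative phosphorylation genes outside the set were not counted for it. AAGATGGC, letters of the YY1 motif, occurred in 13.2% of the ribosomal protein and 12.9% of the oxidative phosphorylation genes of the set, but in 5.31% of all its matched genes, 1.91% of those in neither list and 1 of 25 ribosomal protein genes outside it, against 6.42% of ranked genes outside it. These matches are letters in a window, not binding sites. A pair of the promoters with such matches is shown from 120 bases before the start to the 30th base of the transcript, with the motif letters in capitals (CCGGAAG or its reverse complement, the NRF1 motif, or CCAAT). Atp5k, the gene of ATP synthase subunit e, holds the NRF1 letters starting 50 bases before its start, and Rps21 holds CCGGAAG at 2 places.
Atp5k, chr5:108434370-108434519, minus strand: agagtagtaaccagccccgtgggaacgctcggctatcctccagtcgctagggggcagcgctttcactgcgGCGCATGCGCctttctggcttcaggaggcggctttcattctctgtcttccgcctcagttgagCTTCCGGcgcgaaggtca
Rps21, chr2:180257259-180257408, plus strand: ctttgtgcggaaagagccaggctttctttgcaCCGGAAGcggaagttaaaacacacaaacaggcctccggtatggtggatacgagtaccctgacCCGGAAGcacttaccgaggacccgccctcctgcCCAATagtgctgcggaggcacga

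Across the 300 genes the exon value in labeled RNA ranged from 71.9 to 11113 with a median of 220.5, and that in unlabeled RNA from 1.76 to 3825 with a median of 67.2. Their ratio had a median of 3.05 (quartiles 2.61 and 3.90, highest 68.0). Over all 4795 ranked genes the median ratio was 0.631 (quartiles 0.436 and 1.01). Labeled exceeded unlabeled in 1222 ranked genes (25.5%), reached 2 times the unlabeled value in 395 (8.24%) and 4 times in 68 (1.42%), all of the latter in the set. The lower edge was not marked by a gap. The last genes inside were Gm9844 (ratio 2.299), Snf8 (2.297), a subunit of the ESCRT-II sorting complex, and Zfp788 (2.296), a zinc finger gene, and the first outside were Mrpl22 (2.289), Rpsa (2.288) and Gm11808 (2.286).

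**Figure D1:**
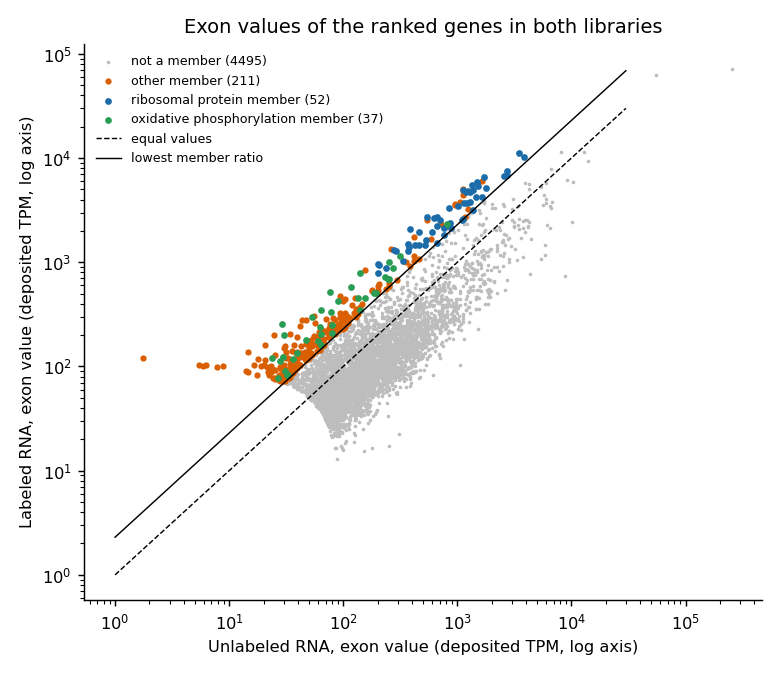
Exon value in labeled RNA (y) against that in unlabeled RNA (x), both as deposited and on log axes, for the 4795 ranked genes; each point is 1 gene. The dashed line marks equal values and the solid line the lowest ratio in the set, 2.296, with the 52 ribosomal protein genes lying mostly at high values and the highest ratios at low unlabeled values.

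The highest ratios belonged to genes with very low unlabeled values. H2-T24, a nonclassical MHC class I gene on chromosome 17 (GRCm38, 36006269 to 36020525, minus strand), had an exon value of 119.72 in labeled and 1.76 in unlabeled RNA, a ratio of 68.0. Wdr83, a WD repeat gene, had 102.73 and 5.45 (ratio 18.8). Uqcc2, an assembly factor of respiratory complex III, had 101.17 and 5.95 (ratio 17.0). Tmem256, a small membrane protein gene, had a ratio of 16.8 from an unlabeled value of 6.22, and E2f7, an atypical E2F repressor of the cell cycle, had 99.1 in labeled and 7.87 in unlabeled RNA (ratio 12.6). Nlrp12, a gene of the NLR family of innate immune regulators, had 101.64 and 8.88 (ratio 11.4). These were the only 6 genes of the 300 with an unlabeled value under 10, and their ratios rest on small denominators whose counting error is unknown.

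The rest of the 20 highest ratios included genes of mitochondria, of RNA synthesis and of protein turnover. Tomm7, a small subunit of the mitochondrial outer membrane translocase, had 137.6 in labeled and 14.6 in unlabeled RNA (ratio 9.42), and Ndufa2, a subunit of respiratory complex I, 256.62 and 29.22 (ratio 8.78). Mcph1, the microcephaly gene microcephalin, had 199.14 and 24.6 (8.10), and Ube2t, the ubiquitin-conjugating enzyme of the Fanconi anemia pathway, 159.46 and 20.72 (7.70). Ratios between 5.90 and 6.75 followed for Atp5k (514.79 and 76.27), Leap2 (117.56 and 17.86), Uqcr11 of complex III (198.34 and 30.34), Cox16, a complex IV assembly factor (90.83 and 14.01), Polr2k, a small subunit that RNA polymerases share (278.7 and 43.26), Sem1 of the proteasome lid (103.27 and 16.64), Lamtor2 of the Ragulator complex (88.72 and 14.65), Atox1, a copper chaperone (202.71 and 33.85), Elobl (279.53 and 46.9) and Lsm5 of the LSm ring (246.1 and 41.68). In 16 of these 20 genes the spliced transcript was shorter than 1000 bases.

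Several of these places belong to a transcript rather than to the gene. When all coding transcripts of a gene were added, 275 of the 300 genes reached the lowest ratio of the set, and 18 of the first 20 did. For 136 of the 300 the file holds 1 coding transcript, so their sum equals the ranked value and could not change. The other sums include the ranked transcript, so the count is not independent of the rule. E2f7 then had 223.49 in labeled and 128.44 in unlabeled RNA, a ratio of 1.74 in place of 12.6, and Mcph1 389.43 and 236.06, a ratio of 1.65 in place of 8.10. H2-T24 kept 67.3 and Nlrp12, with 1 coding transcript, 11.4. Zfp788 was the only gene whose sum fell under 1, at 0.787. The ranked transcripts of Wdr83, Tmem256, Mcph1 and Ube2t are annotated as incomplete at an end, and the exons of Cox16 share 88.8% of their 31-base words with transcripts of other genes.

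The cytosolic ribosomal protein genes, which encode the protein part of the ribosome, made up the largest list in the set. Of 84 ranked, 52 were in it (61.9%, against 6.26% of all ranked genes), their median ratio was 2.71 against 0.631, and 83 of 84 had a ratio above 1, where 25.5% of all ranked genes did. Rpl4 was the exception at 0.965. Rpl37a, of the large subunit, had 2067 in labeled and 385.9 in unlabeled RNA, a ratio of 5.36 and the highest of the list. Rpl35a had 2714 and 540.03 (ratio 5.03), Rpl35 959.7 and 202.46 (4.74), and Rplp1, an acidic protein of the ribosomal stalk, 1312 and 279.76 (4.69).

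The same list held the most abundant genes of the set. Rps24 had the highest mean, with 11113 in labeled and 3459 in unlabeled RNA (ratio 3.21). Rpl41 followed with 10242 and 3825 (2.68), Rpl32 with 7514 and 2739 (2.74), Rpl23a with 6839 and 2712 (2.52) and Rps25 with 6671 and 2584 (2.58). All 52 genes lay between 2.30 and 5.36, so that none was among the 20 highest ratios. Ribosomal protein genes have many near-identical copies in the genome: over 50% of the 31-base words of the transcript occurred in other genes for 32 of the 52, against 87 of the 300 (29%) and 10.7% of the ranked genes outside the set. Leaving out every gene with over 50% of shared words removed 58 of the 84 ribosomal protein genes, and 21 of the 26 left were among the 300 highest ratios that then remained, so that the list's share of them was 7% in place of 17.3%. How RSEM divided reads between such copies was not tested.

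The nuclear genes of oxidative phosphorylation formed the next list, with 37 of 81 ranked genes in the set (45.7%) and a median ratio of 2.15. Of these, 19 had the prefix Nduf, nearly all of complex I, from Ndufa2 (above) to Ndufs6 (350.45 and 141.17, ratio 2.48), and including Ndufa4 (2.77), whose product is known as a subunit of complex IV. Of the ATP synthase genes, Atp5mpl had 786.54 in labeled and 139.91 in unlabeled RNA (ratio 5.62), beside Atp5k at 6.75. Of complex II the set held Sdhb, the iron-sulfur subunit, at 82.37 and 32.82 (2.51). Only 3 of these 37 genes shared over 50% of their 31-base words with other genes. Some of the 37, among them Sdhb, had an unlabeled value under 50 and passed the minimum through their labeled value. Where both values had to be at least 50, the list made up 11.7% of the 300 highest ratios, beside 12.3% under the rule. Together, both lists gave 89 of the 300 genes (29.7%) but 3.44% of the ranked genes.

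Mitochondrial ribosomal protein and proteasome genes were placed between these lists and the median of all genes. Mitochondrial ribosomal protein genes had 9 of 49 in the set (18.4%) with a median ratio of 1.36, led by Mrpl33 (304.91 in labeled and 55.96 in unlabeled RNA, 5.45), Mrpl28 (3.86), Mrps16 (3.74) and Mrpl52 (3.19). Most of the 9, Mrpl28 (unlabeled value 23.14), Mrps16, Mrpl53, Mrps21 and Mrpl55, had an unlabeled value under 50 and passed the minimum through their labeled value. The share of this list with both values at least 50 was not computed. Proteasome subunit genes with a Psma to Psmd symbol, a list that does not hold Sem1, had 5 of 31 (16.1%) with a median of 1.05, with Psmd4, a ubiquitin receptor of the regulatory particle, at 218.62 and 70.5 (3.10), and the core subunits Psmb6 (3.04), Psmb5 (2.92) and Psmb4 (2.52). Translation factor genes had 3 of 53 (Eef1d 2.99, Eif4ebp1 2.67, Eif3k 2.42), or 5.66%, with a median of 0.678, both near the values of all genes. No gene of the first 2 lists, of the mitochondrial ribosomal protein list or of the proteasome list was among the 300 lowest ratios, which are 6.26% of all ranked genes. This was not particular to these lists. The histone, core glycolysis, SR protein and Clk kinase, and signaling inhibitor lists also held none.

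In lists drawn up after the values had been seen, the share in the set was 9 of 18 for the Sm and LSm proteins, which form rings on small nuclear RNAs and on RNA ends (median ratio 2.30). The highest after Lsm5 were Snrpg (847.45 and 154.54, 5.48), Lsm1 (3.72) and Lsm3 (3.17). The share was 6 of 16 for the mitochondrial import machinery (1.62; Tomm7, Pam16, Tomm5 and Timm9 highest), 4 of 10 for assembly factors of the respiratory complexes (1.43; Uqcc2, Cox16, Uqcc3 and Cox17), 4 of 18 for RNA polymerase subunits (1.71; Polr2k, Polr2f, Polr2h and Polr1d) and 2 of 16 for Mediator (0.742; Med28 and Med10). Med28, Med10, Uqcc2, Cox16, Uqcc3, Tomm7, Pam16, Timm9 and Timm10 passed the minimum through their labeled value, with unlabeled values under 50. So did Polr2k, Polr2f, Lsm5 and Lsm1. Because these lists were chosen on these values, they are examples only.

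Lists of genes known for unstable mRNA or for regulation had 0 to 3 genes each in the set, at shares near the 6.26% of all ranked genes or under it, and their short lengths (as few as 11 ranked genes) leave such shares coarse. Of 11 ranked immediate early genes only Klf2, a Krüppel-like factor, was a member, with 100.15 in labeled and 40.06 in unlabeled RNA (ratio 2.5), and the list's median was 0.571, under the 0.631 of all genes. Klf2 was also the only one of 16 naive pluripotency factors (median 0.453). None of 12 signaling inhibitors and feedback genes (0.440) and none of 15 SR protein and Clk kinase genes (0.681) was in it. C2H2 zinc finger genes had 2 of 161 (Zfp367 at 2.80 and Zfp788; median 0.682), and the other transcription factor families 3 of 75, of which Cebpzos, at 3.42, was matched by the letters of its symbol alone and encodes no transcription factor (median 0.510).

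The other regulatory lists gave 1 or 2 genes each. The p53 list had 1 of 16, the apoptosis effector Bax (137.61 and 31.54, ratio 4.36), and the cyclin list 1 of 45, E2f7, with medians of 0.526 and 0.583. Genes of mRNA decay and AU-rich element binding had 2 of 50, Lsm1 and Exosc7 of the exosome (3.40), chromatin modifiers 1 of 98, the methyltransferase gene Setd6 (2.54), and ubiquitin ligases 2 of 82, Fbxw2 (4.56) and Fbxo7 (2.48). None of 12 core glycolysis genes was in it (median 0.830). Of the pluripotent cell markers it held Dppa5a alone, at 3263 and 1235 (2.64). In all, 154 genes of the set (51.3%) were in none of the lists, against 79.3% of all ranked genes. The lists counted here include those drawn up after the values had been seen, which by their choice lower the share of the set in no list. Of the 300, 28 had a provisional or pseudogene-type symbol, and 19 of these 28 shared over 50% of their 31-base words with other genes.

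**Figure D2:**
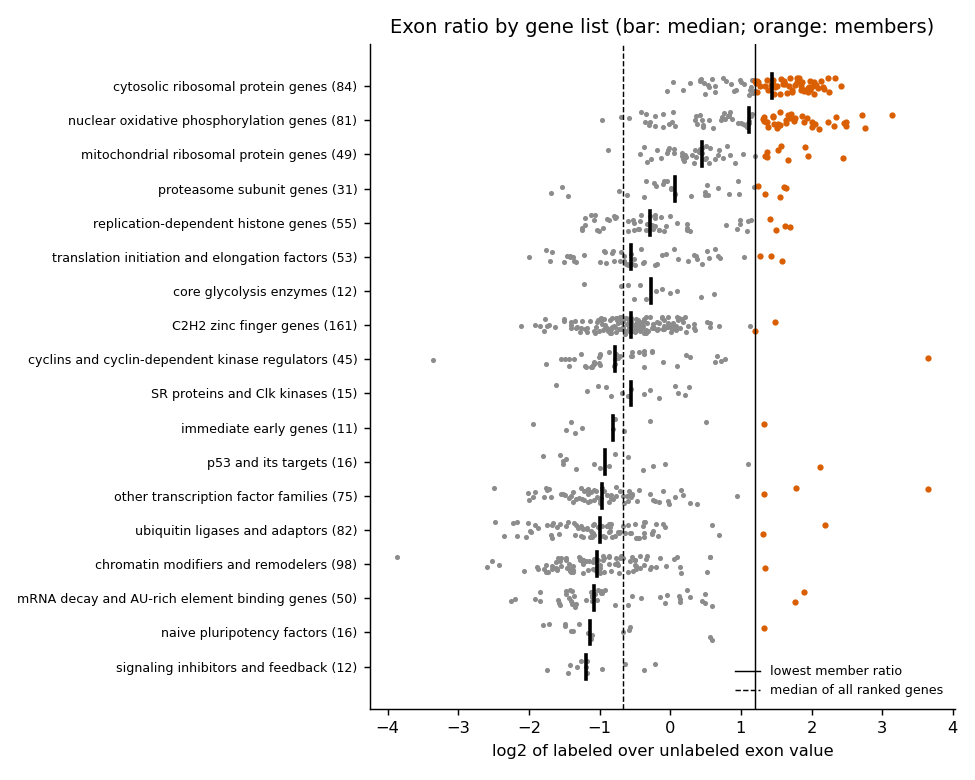
log2 of the ratio of labeled to unlabeled exon value (x) for the ranked genes of 18 lists (y, number ranked in parentheses), with members of the set in orange, other genes in grey and the list median as a black bar. Medians of the ribosomal protein (1.44) and oxidative phosphorylation genes (1.11) lie right of the median of all genes (dashed, -0.66), those of most regulatory lists near or left of it.

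Genes of the set were short. The spliced transcript had a median of 737.5 bases, against 2289 in the ranked genes outside it, and 207 of 300 (69.0%) were shorter than 1000 bases, against 20.6%. With no minimum on the mean, the 300 highest ratios, only 6 of them in the set, had a median spliced length of 1859 and a median unspliced length of 10890 bases. The coding part had a median of 385.5 against 1170 bases, the 3′ untranslated region 180.5 against 618 bases, and the unspliced transcript 4505 against 21188 bases. The median number of exons was 4 against 8, and 25 genes had a single exon (8.33%, against 3.20%). The shortest unspliced transcripts were those of Elobl (300 bases) and of Gm21860 and Gm21748 (309 bases each), all with a single exon, and the longest those of 3110082I17Rik (100764 bases), Commd1, a gene of copper transport (82494 bases), and Fam69a (79033 bases). The ratios were 5.96, 2.73 and 3.11 in the 3 shortest and 3.06, 2.46 and 4.18 in the 3 longest, which overlap.

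Length moved with the ratio over all ranked genes. Spearman's correlation of ratio and spliced length was -0.45 over 4795 genes and -0.21 over the 300, as a description of genes that share both libraries. The set took 25.2% of the ranked genes under 500 bases, 16.0% of those from 500 to under 1000, 5.90% of those from 1000 to under 2000, 1.53% of those from 2000 to under 4000 and 0.401% of longer ones. The 4 genes of the set with 4000 bases or more, named after their values were seen, were Nlrp12, Gm49368, Zrsr1 and Txnl4a. The part of length in the ratios was not tested.

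**Figure D3:**
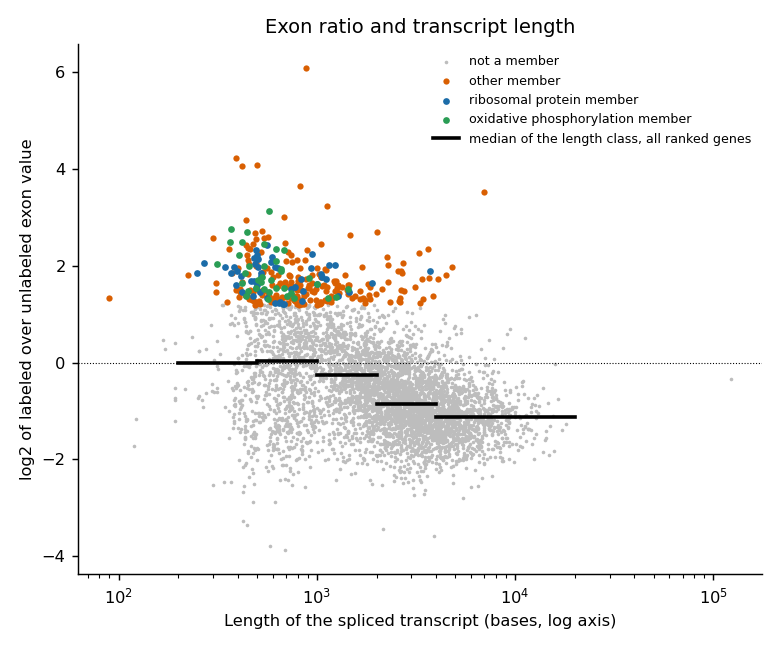
log2 of the ratio of labeled to unlabeled exon value (y) against the length of the spliced transcript in bases (x, log axis), 1 point per ranked gene. Black bars give the median of each length class, which is -0.01 under 500 bases and -1.12 at 4000 bases or more (the bars of these open classes stop at arbitrary lengths), and the set lies mostly left of 1000 bases.

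Within single length classes the medians of the lists differed, and the part of length in this was not tested. Under 500 bases, the median ratio was 3.47 in 21 ribosomal protein genes, 19 of them in the set, and 3.37 in 16 oxidative phosphorylation genes, 12 of them in the set. The 27 replication-dependent histone genes of this length, whose mRNAs are made in S phase and end without a poly(A) tail, had a median of 0.730, and none was in the set. The other 218 genes had a median of 0.853, with 40 in the set. From 500 to under 1000 bases the medians were 2.32, 2.23, 0.930 and 0.952 in the same order. The 4 histone genes of the set were H3 genes, Hist1h3d (276.21 and 85.2, 3.24), Hist2h3c1 (3.10), Hist1h3a (2.82) and Hist1h3g (2.65), all of 500 bases or more, and 4 of 55 (7.27%) is near the share of all ranked genes. Uridine, the base that 4sU replaces, made up a median of 13.95% of the histone transcripts under 500 bases, 21.9% of the ribosomal protein and 23.0% of the oxidative phosphorylation transcripts, and its part in the ratios was not tested.

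**Figure D4:**
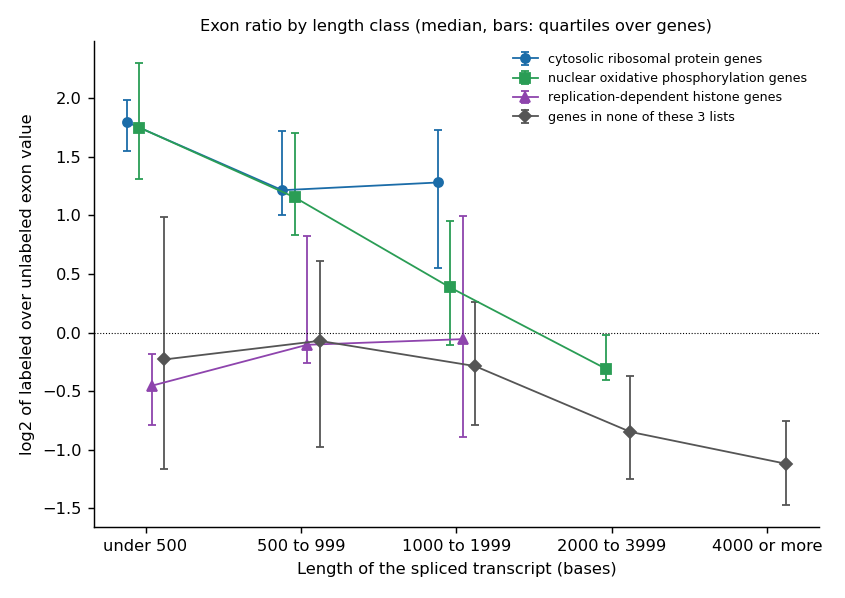
Median log2 ratio of labeled to unlabeled exon value (y) by length class of the spliced transcript (x) for 3 gene lists and for all other ranked genes; bars give the quartiles over genes, and classes with under 5 genes of a list are left out. Under 500 bases the medians are 1.80 (ribosomal protein), 1.75 (oxidative phosphorylation), -0.45 (histone) and -0.23 (other genes).

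The uridine share itself was somewhat lower in the set than in the rest, with medians of 23.3% and 25.1%, and the number of uridines per spliced transcript was 170 against 565. AU-rich elements, known for fast decay of mRNA, were not concentrated in the set. The pentamer ATTTA stood in the 3′ untranslated region of 102 of the 300 genes (34.0%, against 58.1%), and per kilobase of that region it occurred 1.89 times in the set and 2.14 times outside it. The nonamer TTATTTATT was found in 8 genes (2.67%, against 5.74%). A small nucleolar RNA gene lay inside 19 genes of the set (6.33%, against 2.83%), of which 18 were ribosomal protein genes. In the ribosomal protein list such a gene lay inside 18 of 52 in the set (34.6%) and 13 of 32 outside it (40.6%), and in genes of the set in neither large list inside 1 of 211.

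Intron values, which the study's model takes as a measure of unspliced RNA, came from the same libraries as the rule, so they too are a description. What other RNA they hold was not tested. Of the 300 genes 275 had intron values, and 261 had both above 0. Their intron ratio had a median of 4.71 (quartiles 3.21 and 7.40), against 4.28 in the ranked genes outside the set. Labeled introns reached 2 times the unlabeled value in 241 (92.3%, against 92.1% of all ranked genes with both values), 4 times in 157 (60.15%, against 56.9%) and 8 times in 59 (22.6%, against 9.20%). The shares of the set that passed 2 and 4 times were thus close to the background, while the share that passed 8 times was higher. Over all 4534 genes Spearman's correlation of both ratios was -0.045.

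Of the 59 genes with an intron ratio of at least 8, 27 were ribosomal protein genes. The 51 ribosomal protein genes of the set with both values had a median intron ratio of 8.84, against 4.92 in the oxidative phosphorylation genes and 4.01 in genes of neither list. The 31 ribosomal protein genes outside the set with both values had a median of 8.20. The highest, named after their values were seen, were Rps20 (42.92 in labeled and 0.51 in unlabeled introns), Ndufb9 of complex I (10.62 and 0.15) and Nupr1, a stress response gene (24.9 and 0.38), where the unlabeled value was close to 0. At the other end, Serf2 (4.83 and 10.38), Cd63 (0.57 and 0.68) and Ndufv1 of complex I (14 and 15.2) had intron ratios under 1, with exon ratios of 4.91, 3.01 and 2.89.

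**Figure D5:**
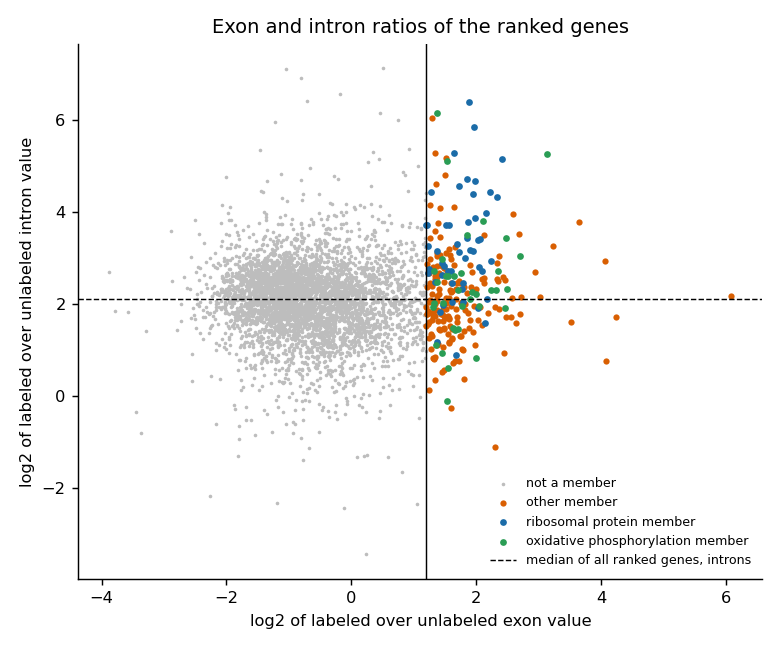
log2 of the ratio of labeled to unlabeled intron value (y) against the same for exons (x), 1 point per ranked gene with both intron values above 0. The vertical line is the lower edge of the set and the dashed line the median of all genes, 2.10; the set spreads around that median, with ribosomal protein genes mostly above it.

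The intron to exon ratio, on which the study's kinetic model works, has as its denominator in labeled RNA the exon value by which the set was chosen, so the rule favors a low ratio there. Labeled intron values themselves had medians of 24.99 in the set and 26.28 outside it, where labeled exon values had 220.5 and 93.8. The intron to exon ratio had a median of 0.083 in labeled and 0.052 in unlabeled RNA in the set, against 0.264 and 0.036 in the ranked genes outside it. In the ribosomal protein genes of the set the medians were 0.024 and 0.0078. Among the 261 genes with all values it reached 1 in labeled RNA in 3, Lsm1 (1.85), 1190007I07Rik (1.24) and Tmem11 (1.11). The labeled ratio was at or under the unlabeled one, below the diagonal of the study's ratio plane, in 73 (28.0%), against 1.08% of the ranked genes outside the set. This position is the same as an exon ratio above the intron ratio, so the rule for the set favors it. Another 5 genes lay above the line that the model gives for a unique solution and 180 (69.0%) between that line and the diagonal, against 15.0% and 81.2% outside the set.

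Other transcripts of the same genes, which the rule did not rank, had similar ratios. In 121 genes of the set 251 further coding transcripts had a mean of at least 50, and their median ratio was 2.96, with 242 above 1 and 201 (80.1%) at or above the lowest ratio of the set, against 4.37% of 5906 such transcripts of all ranked genes. Transcripts annotated as retained introns gave 3.27 (145 in the set) against 0.709 in all ranked genes, and targets of nonsense-mediated decay 2.87 (40) against 0.601. These transcripts share exons with the ranked ones, and RSEM divides reads among them, so they are not independent of the rule.

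Chromosome 11 held the most genes of the set, 44 of 448 ranked genes there (9.82%, against 6.26% overall). On chromosome 2 it was 13 of 382 (3.40%). Within 10000 bases of each other lay 13 pairs, and in 8 of them the gene models overlapped, as for Nme1 (ratio 4.02) and Nme2 (2.64), nucleoside diphosphate kinase genes joined by the readthrough model Gm20390 (2.86). Some loci, such as this one, gave more than 1 pair. Pairs were counted in the set only, so without a share over all ranked genes they do not show clustering. Rps28 (4.19) and Ndufa7 (3.41) lie head to head with 95 bases between them. Exons of 38 genes of the set (12.7%, against 5.65%) overlapped exons of another gene on the same strand and 58 (19.3%, against 20.8%) on the opposite strand. Reads in such overlaps, and reads from the opposite strand where the library kept no strand, cannot be assigned to 1 gene from these values.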

How the data were processed

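Labeled and unlabeled RNA of replicate 1 were compared, 1 library each. Per the labels and the paper, the authors removed ribosomal RNA reads, aligned the rest with STAR 2.5.0 to exonic and intronic sequences of GRCm38 (mm10) and quantified them with RSEM. The deposited signal, called TPM by the authors, is a relative abundance per transcript, and its columns sum to about 10 times the total of true TPM values; thresholds were applied to the deposited values. Of 121429 transcripts with an exon value, 110366 were found in GENCODE M21, 49490 as protein-coding; 36451 of them had both exon values above 0, 10701 a mean of at least 50, and these gave 4795 genes. The ratio took no pseudocount. Lengths, exons and 31-base words came from GENCODE M21, and promoters from RefSeq. Named genes are the 20 highest ratios, 3 on each side of the lower edge, up to 4 per list, the 5 highest means and the 3 longest and 3 shortest; others are marked. The members and the lists were chosen with earlier results of these data known. Lists by symbol match letters only. No test was possible with 1 library per pool; depth is unknown, so values carry no counting error. The ranking was checked on a simulated table. Alternatives were minimums of 25, 100 and none, a pseudocount of 1, all biotypes, sums over coding transcripts, the transcript highest in unlabeled RNA, and subtraction of the intron value; leaving out genes with over 50% of shared words, leaving out incomplete transcripts, and requiring both values of at least 50 were added after seeing the data. Tools were bedtools 2.31.1 and Python 3.11.15 with matplotlib 3.10.9, scipy 1.17.1, pandas 2.3.3 and numpy 2.4.6.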

Additional observations from a re-analysis of the deposited data

How the results depend on the processing

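No paired analysis was possible because each pool had 1 library and no result comes from a test. Shares were judged by their 95% Wilson interval and medians by their 95% order-statistic interval, both over genes only. Each alternative again took the 300 highest ratios. A pseudocount of 1, the transcript highest in unlabeled RNA and leaving out incomplete transcripts moved none of 12 results. Ranking all biotypes moved 11 of the 12 and ranking with no minimum 10. With a mean of at least 25, 184 genes were shared, the lowest ratio was 2.83, the median log2 ratio 1.88, the ribosomal protein share 13.0% (17.3% with the minimum of 50) and the immediate early share 0% (0.333% with the minimum of 50, which is 1 gene). At 100, 187 were shared, with 1.78, 1.36, 22.7% and 0%. With no minimum only 6 were shared, the lowest ratio was 10.0, the median log2 ratio 3.80, the median unspliced length 10890 bases, the spliced length 1859 bases, the exon number 5, the share with a labeled intron to exon ratio of 1 or more 40.3%, the oxidative phosphorylation share 0.333% (12.3% with the minimum of 50), and the immediate early and ribosomal protein shares 0%. With both values at least 50, 183 were shared, with 1.85, 1.33, 22.3% ribosomal protein and 0% immediate early genes. Sums over coding transcripts gave a lowest ratio of 2.54, a median of 1.72 and an immediate early share of 0%; subtracting the intron value gave 1.93, 1.47 and 0% with a labeled ratio of 1 or more. Over all biotypes 45 were shared, with 4.45, 2.56, an unspliced length of 407 and a spliced length of 370.5 bases, 1 exon, 69.0% single-exon, 6.02% with a labeled ratio of 1 or more, 2.00% ribosomal protein, 4.00% oxidative phosphorylation and 0% immediate early genes. Without genes that share over 50% of their 31-base words the values were 1.93, 1.41, an unspliced length of 5947 and a spliced length of 858 bases, 3.67% single-exon and 7% ribosomal protein genes. The cause of these moves was not tested, apart from the genes that each alternative adds or removes.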

Other observations

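Processed pseudogenes, copies of spliced mRNA inserted in the genome, were not ranked with the coding genes, and 8840 of their transcripts took 25.9% of the labeled and 21.5% of the unlabeled values. Those named as ribosomal protein copies had labeled to unlabeled ratios like those of their source genes. In 181 of them the mean was at least 50, the median ratio was 2.61 (quartiles 1.83 and 3.68), and 107 (59.1%) reached the lowest ratio of the 300 genes. Summed over all transcripts, the ribosomal protein pseudogenes took 4.36% of the labeled and 1.87% of the unlabeled values, a ratio of 2.33, and the coding transcripts of the ribosomal protein genes 5.09% and 2.13%, a ratio of 2.39. Reads common to a gene and its copies cannot be told apart from these values.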
